A study of Arabidopsis thaliana with 3 samples.

Results

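The nuclear auxin signalling pathway was described through 50 of the 37336 genes in the count table: the 6 auxin receptors TIR1 and AFB1 to AFB5, 29 Aux/IAA repressor genes (IAA1 to IAA20 and IAA26 to IAA34) and 15 auxin response factor genes (ARF1 to ARF11 and ARF16 to ARF19). The genes were chosen by family name through their locus identifiers, and all 50 were in the table. RNA came from whole seedlings of Arabidopsis thaliana, ecotype Col-0 and wild type, at 7 days of age. The plants had no treatment and grew at 21 °C in 16 h of light and 8 h of dark on MS agar (0.8%) with sucrose (1.5%). The 3 libraries formed 1 group, so no genotype, tissue or treatment was compared, and the labels do not say whether the replicates were separate cultures, so any p-value measures a spread that may be technical.

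Auxin acts in the nucleus by destroying repressors. TIR1 and the AFB proteins are F-box subunits of SCF ubiquitin ligases; auxin joins a receptor to a short degron in domain II of an Aux/IAA protein, which is then ubiquitinated and degraded. Aux/IAA proteins hold ARF transcription factors silent with the help of TOPLESS corepressors, and many Aux/IAA genes are themselves induced by auxin, which closes a feedback loop. In seedlings the pathway directs hypocotyl bending, vascular patterning and lateral root formation.

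The degron is where receptor and repressor meet, so its coding sequence was read first. The core of domain II was searched as the successive codons GGN (glycine), TGG (tryptophan), CCN and CCN (prolines), in frame, in the longest annotated coding sequence of each gene (RefSeq, TAIR10.1). It was present in 23 of 29 Aux/IAA genes and in 34 of 27444 genes overall (0.124%). The 6 Aux/IAA genes without it were IAA20, IAA30, IAA31, IAA32, IAA33 and IAA34. The stretches below belong to the 5 Aux/IAA genes with the highest levels, to the sister genes IAA3 and IAA4 and to IAA14, IAA19 and IAA28, which are taken up later; the 12 core bases are in capitals, with 12 bases on each side.
IAA16, chr3:1289727-1289762, minus strand: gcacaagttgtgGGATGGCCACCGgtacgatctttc
IAA7, chr3:8195565-8195600, plus strand: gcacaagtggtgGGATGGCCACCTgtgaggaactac
IAA8, chr2:9637722-9637757, plus strand: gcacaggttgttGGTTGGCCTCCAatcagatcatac
IAA17, chr1:1136935-1136970, plus strand: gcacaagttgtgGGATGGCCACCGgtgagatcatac
IAA9, chr5:26255101-26255136, plus strand: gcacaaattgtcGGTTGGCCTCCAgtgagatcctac
IAA14, chr4:8349475-8349510, minus strand: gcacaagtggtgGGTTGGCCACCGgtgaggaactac
IAA19, chr3:5264304-5264339, plus strand: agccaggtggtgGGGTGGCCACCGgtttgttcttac
IAA28, chr5:9033809-9033844, plus strand: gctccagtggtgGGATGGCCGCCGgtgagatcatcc
IAA3, chr1:1129016-1129051, minus strand: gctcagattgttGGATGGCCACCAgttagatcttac
IAA4, chr5:17550737-17550772, plus strand: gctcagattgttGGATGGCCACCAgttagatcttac
IAA3 and IAA4 had 0 differences over these 36 bases, IAA7 and IAA14 had 2, both in the core, and IAA16 and IAA17 had 4, all outside it.

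Small RNAs restrain parts of the pathway after transcription. In Arabidopsis, miR393 targets receptor mRNAs, miR160 and miR167 target ARF mRNAs, and siRNAs from the TAS3 transcript target ARF2, ARF3 and ARF4. The mature miRNAs, with the seed (bases 2 to 8) in capitals, were read from RefSeq TAIR10.1.
miR393a-5p: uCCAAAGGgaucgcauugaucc
miR160a-5p: uGCCUGGCucccuguaugcca
miR167a-5p: uGAAGCUGccagcaugaucua
The most complementary site in each member transcript was then found without gaps, and sites with at most 4 mismatches are shown. They are written as DNA of the mRNA strand, with bases that match the exact complement in capitals and mismatches in lower case. A G opposite a U was counted as a mismatch. All 9 lay in coding exons.
TIR1, chr3:23273727-23273748, minus strand: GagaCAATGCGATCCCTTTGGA
AFB1, chr4:1405341-1405362, minus strand: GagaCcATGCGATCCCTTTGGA
AFB2, chr3:9870237-9870258, plus strand: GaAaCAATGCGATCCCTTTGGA
AFB3, chr1:4369085-4369106, minus strand: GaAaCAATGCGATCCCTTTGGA
ARF10, chr2:12115741-12115761, plus strand: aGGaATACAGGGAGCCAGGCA
ARF16, chr4:14704141-14704161, minus strand: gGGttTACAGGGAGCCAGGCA
ARF17, chr1:29274189-29274209, plus strand: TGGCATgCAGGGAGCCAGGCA
ARF6, chr1:10686478-10686498, minus strand: gAGATCAgGCTGGCAGCTTgt
ARF8, chr5:14633841-14633861, plus strand: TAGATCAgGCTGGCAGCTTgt
The next best member had 6 mismatches to miR393a-5p, 8 to miR160a-5p and 7 to miR167a-5p. Over all 27444 coding sequences, sites within the same limit were found in 6, 3 and 7 genes for these miRNAs. AFB4 and AFB5 had no such site in the annotated transcripts, and AFB1 carried 4 mismatches against 2 in AFB2 and AFB3.

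For TAS3 the 21-base window with the fewest mismatches to ARF2, ARF3 and ARF4 in sum was searched along its transcript. It is shown with the matching stretch of each ARF mRNA, with bases that match the exact complement in capitals. A G opposite a U was again counted as a mismatch.
TAS3, chr3:5862205-5862225, plus strand: tttcttgaccttgtaagaccc
ARF2, chr5:24913262-24913282, plus strand: GGGTCTTgCAAGGTCAAGAAt
ARF3, chr2:14325941-14325961, minus strand: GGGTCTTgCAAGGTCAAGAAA
ARF4, chr5:24309507-24309527, minus strand: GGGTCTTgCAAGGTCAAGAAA
ARF3 and ARF4 each had 1 mismatch and ARF2 had 2. The TAS3 transcript (AT3G17185) stood at 27.2, 34.3 and 36.0 CPM (read counts scaled to library size, with edgeR's TMM factors) in replicates 1, 2 and 3, lowest in replicate 1.

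Depth was similar in the 3 libraries, at 27069921 to 32967215 counts per library, but replicate 1 stood apart. Between replicates 2 and 3, 61 of 17050 detected genes differed by more than 2-fold, against 2220 between replicates 1 and 2 and 2770 between replicates 1 and 3. Root markers moved with it. Of 12 listed, 10 averaged at least 1 CPM, and in 9 of these replicate 1 was over 2-fold below both other libraries, against 7.69% of all such genes. By edgeR's goodness-of-fit test of variation between libraries, 7 of the 12 were tested and 4 passed at an adjusted p of 0.05, against 2.02% of all genes tested. The endodermal gene CASP1 was at 1.88, 28.0 and 27.6 CPM (adjusted p = 8.07e-06, edgeR goodness-of-fit test) and the auxin efflux gene PIN2 at 2.42, 20.4 and 19.5 CPM (adjusted p = 0.00393). The phosphate transporter gene PHT1;1, at 5.43, 54.4 and 60.5 CPM, and the root hair gene EXPA18, at 0.422, 6.37 and 6.18 CPM, also passed, and RSL4 had the lowest level of the list. The exception was CO2 (AT1G62500), at 60.6, 20.7 and 35.9 CPM. The summed level of the list was 46.4, 107.6 and 117.7 CPM per kb of exon, and no root marker was at 0. Seed storage genes also differed: CRU1 was at 104.5, 5.46 and 30.9 CPM and OLEO1 at 9.39, 0.425 and 4.07 CPM, both past the same test, while the pollen genes VGD1 and HTR10 had 0 counts. The 8 shoot markers were all detected, led per kb by CAB1 and RBCS1A with GLK1 lowest, and none passed. Their summed levels were 49777, 50575 and 49735 CPM per kb, of which CAB1 alone held 25823, 21916 and 22330. CAB1 and RBCS1A were highest in replicate 1 and the other 6 were lowest there, against 44.2% of all genes lowest. The median log2 difference of the 8 from the mean of the other libraries was -0.23. The part of organ content in the differences below was not tested, and in RNA of whole seedlings fewer cells of a type cannot be told apart from less RNA per cell.

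Most of the pathway was transcribed in the seedlings. At 1 CPM or more in each library, 43 of 50 genes were detected, against 45.7% of all genes in the table. All 6 receptors and all 15 ARF genes were detected, and 22 of 29 Aux/IAA genes. Levels between genes were compared in CPM per kb of merged exons. The median level was 22.1 CPM per kb for the receptors, 17.05 for the Aux/IAA genes and 10.9 for the ARF genes. Over all detected genes it was 9.14. The Aux/IAA median covers all 29 genes, detected or not, so it is not on the same footing as that value.

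Among the receptors TIR1 (AT3G62980, chromosome 3, 23273065 to 23276630), the founding auxin receptor, had the highest level, at 53.2, 62.1 and 66.3 CPM per kb in replicates 1, 2 and 3. It held 38.6% ± 0.286 of the summed receptor level (SD, n = 3). AFB5 (AT5G49980), a receptor of the clade that also perceives picolinate herbicides, followed at 31.2, 34.9 and 35.6 CPM per kb. The highest AFB5 value was below the lowest TIR1 value. AFB2 (AT3G26810), a close partner of TIR1 in root and hypocotyl responses, stood at 26.0, 26.7 and 30.8 CPM per kb. AFB3 (AT1G12820) stood at 13.3, 17.2 and 18.5 CPM per kb, and AFB1 (AT4G03190), known for rapid root responses, at 9.86, 14.8 and 17.1 CPM per kb. The ranges of AFB3 and AFB1 over the libraries overlapped, and AFB3 was above AFB1 within each of the 3 libraries. AFB4 (AT4G24390) was lowest, at 4.32, 4.34 and 5.01 CPM per kb. AFB5 exceeded its sister AFB4 7.31-fold, with a log2 ratio of 2.87 ± 0.0970, and TIR1 exceeded AFB1 4.42-fold, with a log2 ratio of 2.15 ± 0.245 (SD, n = 3). AFB1, AFB3 and AFB4 share 20.4%, 31.4% and 17.7% of their exon positions with other genes, so their counts are uncertain.

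The Aux/IAA family covered the widest range of the 3 classes. IAA16 (AT3G04730, chromosome 3, 1288155 to 1290891) had the highest level, at 125.5, 153.8 and 163.6 CPM per kb. IAA7 (AT3G23050), the AXR2 gene whose stabilised form makes plants auxin resistant, stood at 108.1, 131.8 and 146.9 CPM per kb, and its range overlapped that of IAA16. IAA8 (AT2G22670) was the steadiest of the leading genes, at 109.4, 113.8 and 113.6 CPM per kb. IAA17 (AT1G04250), the AXR3 gene, was at 41.0, 85.3 and 87.2 CPM per kb, and IAA9 (AT5G65670) at 56.1, 72.0 and 78.0 CPM per kb. These 5 genes held 53.4%, 64.0% and 63.4% of the summed Aux/IAA level in replicates 1, 2 and 3. IAA2, IAA4 and IAA14 came next in the ranking, with means of 61.8, 47.1 and 40.3 CPM per kb. From there to IAA11 at 6.80 ± 0.409 CPM per kb (SD, n = 3) the ranges of neighbouring genes in the order overlapped except at IAA26 and IAA11. Among these were IAA12 (BODENLOS, which represses MONOPTEROS in the embryo) at 20.4 ± 2.45 CPM per kb and IAA3 (SHY2, which acts in root meristem size) at 23.2 ± 1.68 CPM per kb. IAA3 shares 39.6% of its exon positions with another gene, and its value is uncertain.

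**Figure D1:**
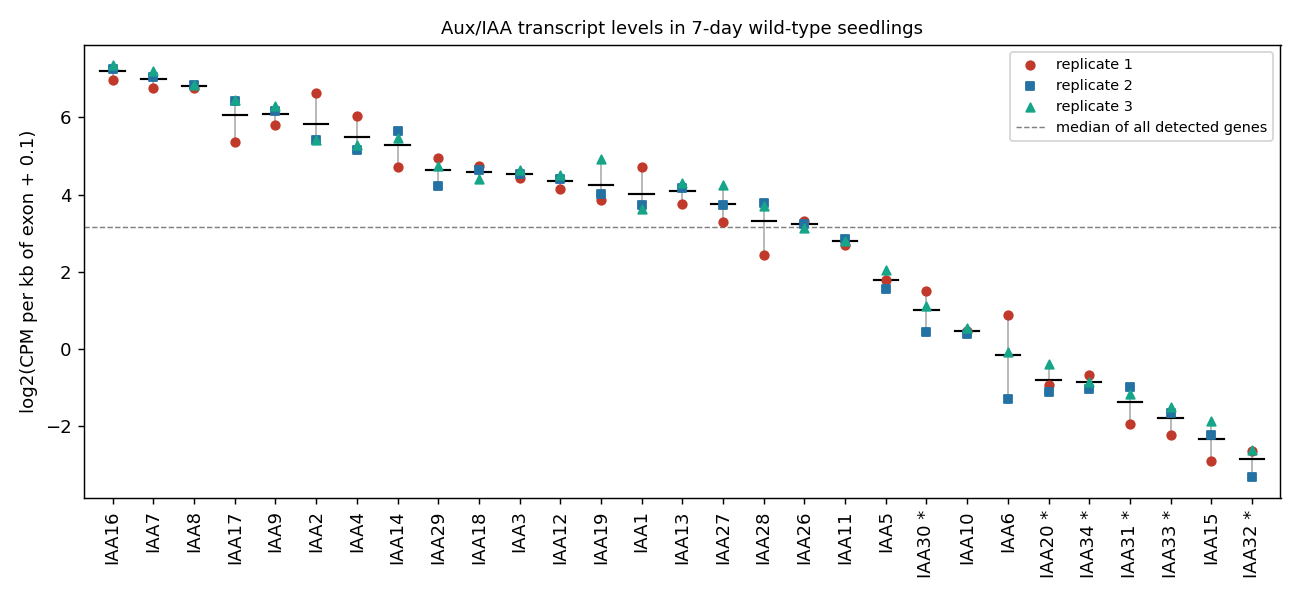
Transcript level of the 29 Aux/IAA genes, as log2(CPM per kb of exon + 0.1), with 1 point per library, a bar at the mean of the log2 values and a line over the range; asterisks mark the 6 genes without the domain II core. Levels run between IAA16, with a mean of 147.6 CPM per kb, and IAA32, with a mean of 0.0406 CPM per kb, and the genes with an asterisk lie at the low end.

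The Aux/IAA genes without the degron core were low or not detected. Of these 6, only IAA30 (AT3G62100) was detected, at 2.73, 1.24 and 2.03 CPM. IAA20 (AT2G46990) was at 0.422, 0.360 and 0.653 CPM, IAA34 (AT1G15050) at 0.534, 0.392 and 0.461 CPM, and IAA31 (AT3G17600) at 0.141, 0.360 and 0.307 CPM. IAA33 (AT5G57420) had 3, 5 and 5 counts, at or near the limit of 3 counts that a count of 0 allows. IAA32 (AT2G01200) had 4, 0 and 3 counts; the exact 95% Poisson interval of the 4 counts was 1.09 to 10.2, and 44.2% of its exon positions are shared with another gene. Together the 6 genes held 0.488%, 0.301% and 0.411% of the summed Aux/IAA level. Of the 23 genes with the core, 21 were detected. The exceptions were IAA15 (AT1G80390), with 1, 3 and 4 counts, and IAA6 (AT1G52830), the SHY1 gene, with 53, 8 and 19 counts. The low end of the detected genes with the core held IAA10 at 1.27 ± 0.0753 CPM per kb and IAA5 at 3.41 ± 0.594 CPM per kb (SD, n = 3).

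ARF2 was the leading response factor. ARF2 (AT5G62000, chromosome 5, 24910191 to 24915395), a repressor that limits organ growth, was at 76.4, 68.8 and 64.9 CPM per kb and held 34.0% ± 1.90 of the summed ARF level (SD, n = 3). ARF1 (AT1G59750), its close relative, was at 29.4, 21.0 and 20.7 CPM per kb. Below ARF1, ARF3 (ETTIN, a leaf polarity and gynoecium factor) was at 14.1, 11.9 and 13.8 CPM per kb and ARF4, which acts with it in leaf polarity, at 11.7, 9.96 and 11.3 CPM per kb. ARF18 had a mean of 11.9 ± 0.568 CPM per kb, while ARF9 and ARF11 had means of 7.57 ± 2.76 and 7.27 ± 2.56 CPM per kb. Of the 14 steps between neighbours in the order of the 15 ARF genes, 3 had ranges that did not overlap: ARF2 over ARF1, ARF1 over ARF3 and ARF5 over ARF17. The other neighbours in the order had overlapping ranges; genes further apart in it were not compared this way.

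The class A ARFs, whose glutamine-rich middle regions activate transcription, were lower in sum. ARF8 (AT5G37020) was at 12.8, 12.2 and 13.5 CPM per kb and ARF6 (AT1G30330) at 9.99, 10.03 and 12.8 CPM per kb; the pair acts together in hypocotyl growth and flower maturation. ARF7 (AT5G20730), the NPH4 gene of phototropism, was at 7.61, 7.13 and 6.53 CPM per kb. ARF5 (AT1G19850), the MONOPTEROS gene of vascular patterning, was at 7.44, 4.603 and 4.53 CPM per kb, and ARF19 (AT1G19220), which acts with ARF7 in lateral root formation, had the lowest mean of the ARF genes, at 5.05, 2.12 and 1.53 CPM per kb. The 5 activators held 18.3%, 19.0% and 19.9% of the summed ARF level, a log2 ratio of activators to repressors of -2.09 ± 0.0731 (SD, n = 3). Of the repressors of class C, which are the miR160 targets, ARF10 (AT2G28350), known from root cap formation, was at 15.8, 9.53 and 12.2 CPM per kb, ARF16 (AT4G30080) at 6.60, 7.27 and 6.96 and ARF17 (AT1G77850) at 3.41, 2.67 and 2.80 CPM per kb. The miR160 targets summed to 25.8, 19.5 and 21.99 CPM per kb, the miR167 targets ARF6 and ARF8 to 22.8, 22.2 and 26.3, and the TAS3 targets to 102.2, 90.7 and 90.003 CPM per kb, most of it ARF2. The miR393 targets TIR1, AFB2 and AFB3 summed to 92.5, 105.9 and 115.6 CPM per kb. The targets in these sums follow a list of known targets and not the sites shown above. AFB1, whose site had 4 mismatches, is not on that list and was left out.

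**Figure D2:**
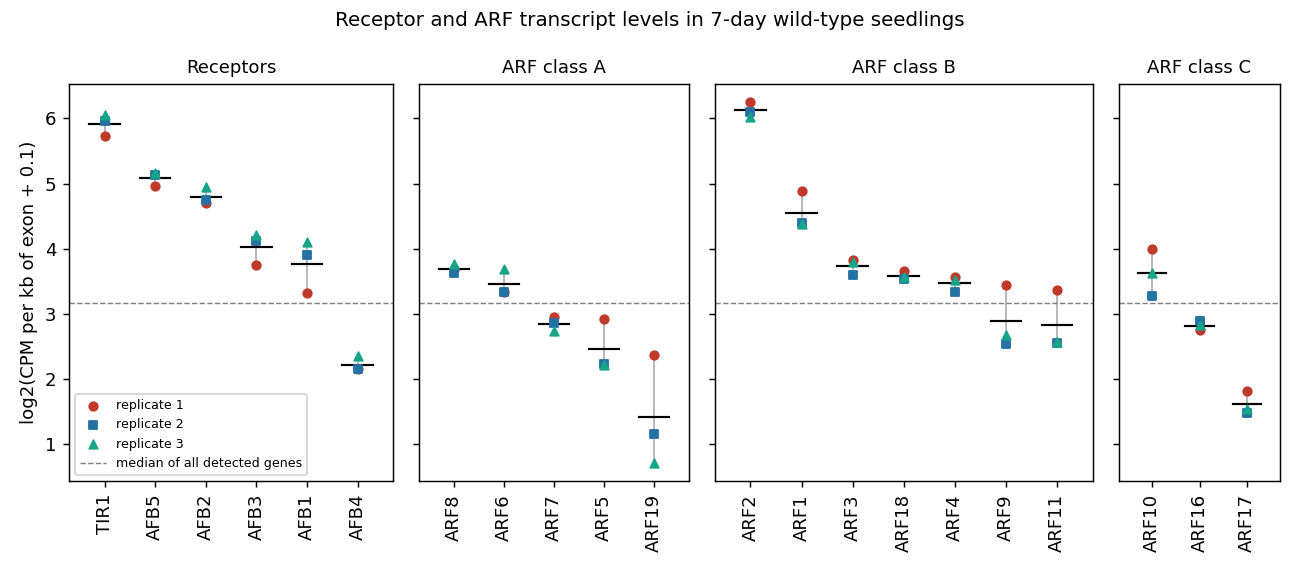
Transcript level of the 6 receptors and the 15 ARF genes by class, as log2(CPM per kb of exon + 0.1), with 1 point per library, a bar at the mean of the log2 values and a dashed line at the median of all detected genes. TIR1 and ARF2 lead their classes, at means of 60.5 and 70.0 CPM per kb, and the libraries of ARF19 are the most widely spread.

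Sister genes differed in level in a steady direction. In 20 of 20 pairs of related genes the same gene was higher per kb in all 3 libraries, and 10 pairs differed by more than 2-fold in every library. These counts were not made for unrelated genes, which can also keep their order when their levels differ. The smallest p that a two-sided exact permutation of signs over 3 libraries allows is 0.25, which every pair had, also after adjustment, so no pair could pass. Among the 10, IAA32 over IAA34 and IAA20 over IAA30 rest on few counts, with mean log2 ratios of -2.01 and -1.82. These became -0.48 and -0.996 when a larger value was added to the level, so both pairs then fell short of 2-fold. AFB1, AFB4 and IAA10, also in pairs among the 10, share 20.4%, 17.7% and 27.6% of their exon positions with other genes. IAA7 exceeded IAA14 3.29-fold, IAA18 (a repressor of lateral root initiation) exceeded IAA26 2.57-fold and IAA16 exceeded IAA17 2.18-fold. ARF3 and ARF4, both TAS3 targets, were close, with a log2 ratio of 0.27 ± 0.0150 (SD, n = 3). IAA12 exceeded IAA13 by only 0.27 on the log2 scale, and this turned to -0.29 without the length correction; IAA13 shares 35.3% of its exon positions with another gene. Coding sequences of the 20 pairs were between 68.1% (ARF3 and ARF4) and 85.7% (IAA20 and IAA30) identical in aligned bases, and how reads fitting both sisters were counted is not stated.

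Variation of the members between the libraries was tested against genes of like abundance. Of 45 members tested, 0 passed edgeR's goodness-of-fit test at an adjusted p of 0.05, against 2.02% of all 19016 genes tested, and 2 had an unadjusted p under 0.05. A count of 0 in 45 is near that background and says nothing particular about the members. The biological coefficient of variation behind the test was 0.320 with all 3 libraries and 0.0950 without replicate 1, where IAA19 passed. DESeq2 marked 0 members as dispersion outliers, against 23 of all 19016 genes, so this 0 says nothing particular about the members either. The members left out for low counts were IAA6, IAA15, IAA31, IAA32 and IAA33. By a Poisson chi-square test, 36 of the 45 differed between libraries beyond counting error, near the 78.5% of all genes tested. In simulated counts at the measured dispersion the goodness-of-fit test recovered 115 of 200 genes changed 4-fold in 1 library and 197 of 200 changed 16-fold, and changes of 2-fold were not simulated. The changed genes were only raised and had fitted means over 200 counts. The recovery therefore does not cover tested members with fewer counts, which are IAA5, IAA10, IAA20, IAA30 and IAA34.

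IAA2 and ARF19 were the 2 genes with an unadjusted p under 0.05, and both were highest in replicate 1. IAA2 (AT3G23030) was at 135.2, 58.3 and 58.2 CPM, that is 2.32-fold higher in replicate 1 than in either other library (adjusted p = 0.304, edgeR). ARF19 was at 21.8, 9.19 and 6.60 CPM (adjusted p = 0.464, edgeR), and the log2 ratio of ARF7 over ARF19 was 0.58, 1.70 and 2.03 in the 3 libraries. On the low side of replicate 1 stood IAA17, at 54.0, 112.3 and 114.9 CPM, and IAA28 (AT5G25890), a repressor of lateral root founder cell identity, at 7.42, 18.9 and 17.8 CPM. Among the 43 members that averaged at least 1 CPM, IAA2 and ARF19 were over 2-fold higher in replicate 1 than in both others, against 6.81% of all such genes, and IAA17 and IAA28 were over 2-fold lower, against 7.69%. These shares of members are close to those of all genes.

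The classes sat on different sides in replicate 1. All 6 receptors were lowest in that library, against 44.2% of all genes, with a median log2 difference from the mean of the others of -0.22. ARF genes were highest in it in 12 of 15 cases, against 45.5% of all genes, with a median difference of 0.19. The class B repressors were highest in 7 of 7 cases, led by ARF9 (AT4G23980) at 32.2, 17.1 and 18.8 CPM and ARF11 (AT2G46530) at 27.8, 15.7 and 15.9 CPM. A side counts any difference, however small. By the Poisson chi-square test 5 of 6 receptors, 13 of 15 ARF genes and 6 of 7 class B genes differed beyond counting error, against 78.5% of all genes tested. AFB4, at 12.60, 12.65 and 14.63 CPM (adjusted p = 0.0721, Poisson), and ARF18 (adjusted p = 0.118, Poisson) did not. Of 22 Aux/IAA genes 7 were highest and 13 lowest in it. With total counts in place of TMM, the median log2 difference of all genes was 0.17, against 0.01 with TMM, and 56.3% of all genes were highest and 34.1% lowest in replicate 1. On that scaling 3 of 6 receptors were lowest, 14 of 15 ARF genes were highest, all 7 class B genes were still highest, and the Aux/IAA genes split into 9 highest and 10 lowest. Each of these rests on 1 library against 2, and the root marker values above moved with the same library.

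**Figure D3:**
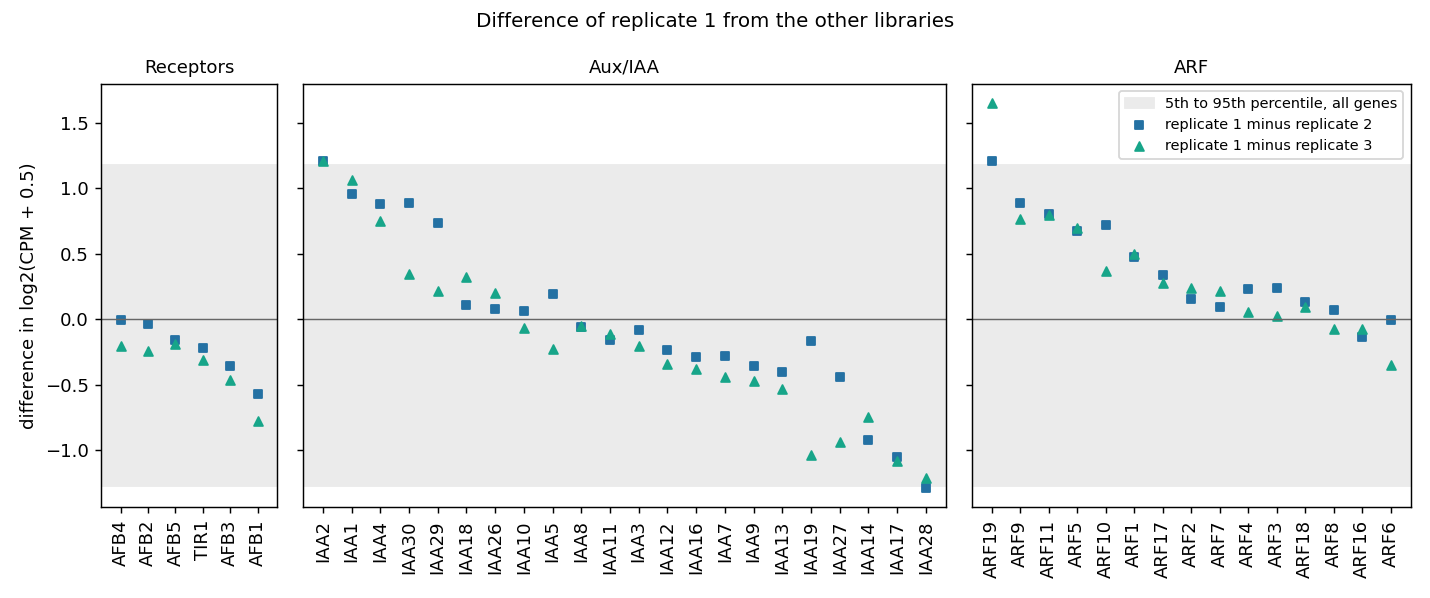
Difference in log2(CPM + 0.5) of replicate 1 from replicate 2 (squares) and from replicate 3 (triangles) for the 43 members that averaged at least 1 CPM, ordered within each class, over a grey band that spans the 5th to 95th percentile of all genes for replicate 1 minus the mean of the others. Receptors lie at or below 0, ARF genes mostly above 0, and the Aux/IAA genes range between IAA2 at 1.21 and IAA28 at -1.29 (replicate 1 minus replicate 2).

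In 2 of 3 neighbouring pairs of Aux/IAA genes, 1 gene was highest and the other lowest in replicate 1. Of all genes that averaged at least 1 CPM, 45.5% were highest and 44.2% lowest there, so 2 genes on opposite sides are not rare. The pattern was noticed after the values were seen and was not compared with neighbours among other genes. Members within 20 kb of each other were found at 3 places, each with 1 annotated gene between them, in divergent orientation. IAA1 (AT4G14560) and IAA14 (AT4G14550, SOLITARY ROOT, a repressor of lateral root initiation) lie 10.7 kb apart on chromosome 4. IAA1 was at 24.8, 12.6 and 11.6 CPM and IAA14 at 49.7, 94.7 and 83.7 CPM, so IAA1 was highest and IAA14 lowest in replicate 1. IAA2 and IAA7 lie 12.5 kb apart on chromosome 3, and IAA7 was at 206.2, 251.5 and 280.3 CPM, lowest in the library where IAA2 was highest. IAA3 and IAA17 lie 6.39 kb apart on chromosome 1; IAA3 was at 29.3, 31.1 and 33.8 CPM, lowest in replicate 1 like IAA17 but by less. IAA4 (AT5G43700), the sister of IAA3 on chromosome 5, was at 89.7, 48.5 and 53.2 CPM, highest in replicate 1 like IAA1 and IAA2. None of these genes passed the goodness-of-fit test.

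**Figure D4:**
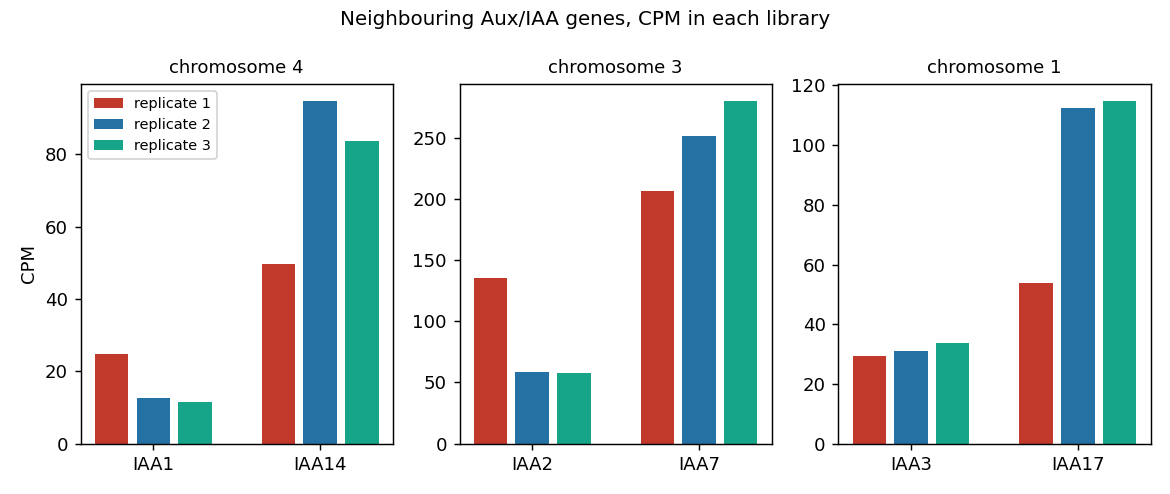
CPM in each library of the 3 neighbouring pairs of Aux/IAA genes, with 1 bar per replicate. IAA1 and IAA2 are highest in replicate 1, at 24.8 and 135.2 CPM, while their neighbours IAA14 and IAA7 are lowest there, at 49.7 and 206.2 CPM, and both IAA3 and IAA17 are lowest there.

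Without replicate 1, IAA19 was the 1 member that passed. IAA19 (AT3G15540, chromosome 3, 5264001 to 5265695), the MASSUGU2 repressor of hypocotyl bending, was at 14.5, 16.3 and 30.3 CPM, and between replicates 2 and 3 it varied beyond genes of like abundance (adjusted p = 0.0039, edgeR goodness-of-fit test), against 0.308% of all genes tested. With all 3 libraries its unadjusted p was 0.142 and it did not pass. IAA27 (AT4G29080), at 13.9, 19.0 and 27.02 CPM, was also highest in replicate 3 but did not pass (adjusted p = 0.626 without replicate 1, edgeR). The promoter of IAA19 is shown for the auxin response elements it holds, chr3:5263751-5264050, plus strand, reaching 250 bases before and 50 after the annotated start (RefSeq, TAIR10.1), with TGTCTC in capitals.
IAA19 promoter: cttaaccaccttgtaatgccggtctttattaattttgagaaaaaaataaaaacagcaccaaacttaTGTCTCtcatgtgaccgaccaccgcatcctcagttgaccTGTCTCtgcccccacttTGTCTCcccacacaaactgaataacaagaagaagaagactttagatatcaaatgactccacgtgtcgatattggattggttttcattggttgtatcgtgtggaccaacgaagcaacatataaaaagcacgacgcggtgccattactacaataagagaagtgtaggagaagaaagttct
TGTCTC occurred 3 times in this window, and searched on both strands it was found in 12 of 29 Aux/IAA promoters, 1 of 6 receptor promoters and 1 of 15 ARF promoters, against 14.2% of 27443 promoters of the same length. TGTCGG, which shares its first letters TGTC and was counted apart, was found in 6 of 29, 0 of 6 and 2 of 15, against 5.12% of all promoters. A match is a description of these letters and does not show binding. IAA2, IAA4, IAA7 and IAA17 held neither motif in the window, while IAA1 held both.

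The rest of the pathway was transcribed too. The counts of detected genes below stand beside 45.7% of all genes in the table. All 9 listed genes of the SCF ligase and its cullin cycle were detected, led per kb by ASK1, the adaptor that carries the F-box protein, at 147.4, 244.7 and 258.4 CPM, and by ASK2 at 73.0, 66.6 and 63.6 CPM; CAND1 had the lowest level, with 33.6, 35.8 and 31.8 CPM. All 5 TOPLESS corepressors were detected, with TPL at 197.0, 197.4 and 205.7 CPM, TPR2 at 71.1, 85.8 and 87.4 CPM and TPR3 lowest at 19.5, 21.4 and 23.1 CPM. Of 13 auxin synthesis genes 8 were detected, led by the flavin monooxygenase genes YUC9 at 18.9, 26.8 and 25.1 CPM and YUC8 at 11.6, 17.6 and 23.6 CPM, while YUC10 and YUC11 had 0 counts in each library. The 4 influx carriers were all detected and all lowest in replicate 1, against 44.2% of all genes, in the library where the root markers were low; the part of organ content was not tested. They were led by AUX1 at 149.0, 215.2 and 241.3 CPM and LAX1 at 61.5, 82.1 and 101.03 CPM, with LAX3 lowest at 16.7, 42.8 and 43.8 CPM. Of 14 auxin-responsive genes 9 were detected. They were led per kb by the conjugating enzyme gene GH3.6 at 97.4, 135.9 and 166.6 CPM and the transcription factor gene HAT2 at 85.9, 70.5 and 87.5 CPM. The means of these 2 genes were 57.5 and 57.1 CPM per kb. GH3.5, at 106.1, 106.9 and 145.5 CPM, was above HAT2 in CPM but had a mean of 50.7 CPM per kb. GH3.4 had 0 counts. None of these listed genes passed edgeR's goodness-of-fit test at an adjusted p of 0.05, against 2.02% of all genes tested. The counts were 0 of 9, 0 of 5, 0 of 9, 0 of 4 and 0 of 11 tested in the order given. They are near that background and say nothing particular about these genes. Of the genes tested, 0, 0, 0, 1 and 1 had an unadjusted p under 0.05. Between replicates 2 and 3 the auxin-responsive genes had a median log2 difference of -0.31 (replicate 2 minus replicate 3) and the influx carriers of -0.23, beside -0.10 for the 43 members and 0.01 over all genes.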

How the data were processed

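Whole-number counts per gene, deposited by the authors with 1 column per library, were used as given; 0 other columns were present. HISAT2 2.1.0, featureCounts 1.6.1, DESeq2 and TAIR10 are named in the submitters' processing notes, with no role or order; the strand setting, annotation and treatment of reads on several genes are not stated in those notes or the labels. The counts name no coordinates, so gene models and sequences come from RefSeq TAIR10.1, to which all 50 members matched. Members, lists and tests were chosen with earlier results of these data known.

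CPM used TMM library sizes (factors 1.08, 0.963 and 0.962; edgeR 4.0.16, R 4.3.3). A count of 0 allows 3 counts, or 0.0843, 0.0981 and 0.115 CPM in replicates 1, 2 and 3; limits and intervals cover counting error only. A level was the CPM divided by kb of merged exon, with 0.1 added on the log2 scale; differences between libraries used log2(CPM + 0.5). Variation was tested by edgeR's goodness-of-fit test (trended dispersion, intercept only, after filterByExpr) with Benjamini-Hochberg adjustment over 19016 genes, and by a Poisson chi-square test. The step was tested on simulated data. Genes were named by class, level, test result, pair direction or target site; of 9 further lists (79 genes), the 2 highest members, the lowest and any that passed were named. DESeq2 1.42.0 gave size factors and dispersion outliers as alternatives. Reads from overlapping genes cannot be told apart, and 8 members share over 10% of exon positions with another gene.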

Additional observations from a re-analysis of the deposited data

How the results depend on the processing

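The counts of detected members, Aux/IAA genes and ARF genes stayed within 1.5 times of 43, 22 and 15 under total-count scaling, DESeq2 size factors, detection at 0.5 or 2 CPM and without any 1 library. The number of members varying beyond the trend was 0 under total-count scaling, DESeq2 size factors, no filter and DESeq2's outlier rule, and between 0 and 1 with a library left out; the 1 gene was IAA19 without replicate 1, and fewer libraries also change what the test can find. Without the length correction the median log2 level was 4.98 for ARF genes (3.45 per kb), 5.71 for receptors (4.41 per kb) and 4.28 for Aux/IAA genes (4.03 per kb). The Aux/IAA median was thus above the ARF median per kb but below it without the correction. The log2 ratio of activator to repressor ARFs was -1.81 without it. The log2 ratio of IAA12 over IAA13 reversed to -0.29, with IAA12 lower in all 3 libraries. Without the correction 19 of 20 pairs kept 1 direction in every library. The exception was ARF6 and ARF8, at 40.6, 40.7 and 52.0 CPM against 46.1, 43.8 and 48.6 CPM in replicates 1, 2 and 3. Only the length correction differed between the compared values, and which scale is nearer to transcript abundance was not tested. With total counts in place of TMM, the median log2 difference of members was 0.187 for replicate 1 minus replicate 2 (0.0612 with TMM) and 0.0849 for replicate 1 minus replicate 3 (-0.0754 with TMM), so the sign of the second depends on the scaling. The longest transcript in place of merged exons, added after the data were seen, moved no class median beyond the spread between libraries. No paired analysis was possible because the 3 libraries form 1 group. Depth limits the genes with few counts: IAA15, IAA32 and IAA33 lie at or near the limit of 3 counts.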

Other observations

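A further 8 ARF genes of chromosome 1, which are not among the 50 genes, were below 1 CPM in every library. Of these, 7 lie between positions 12443547 and 13111700, and ARF23 lies apart at 16672582 to 16673952 (RefSeq, TAIR10.1). ARF12, ARF13, ARF14, ARF15, ARF21, ARF22 and ARF23 had 0 counts in all 3 libraries, and ARF20 had 16, 4 and 0 counts. A count of 0 allows up to 3 counts per library, and counts of these genes are uncertain where reads fit several of them.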
